A study of Mus musculus with 35 samples.

Results

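The 35 genes described here encode scaffolds, kinases and adhesion proteins of the postsynaptic density, the protein mesh under the spine membrane that faces the presynaptic terminal. They were taken by symbol from count tables of 32544 genes, and all 35 passed the filter on low counts in every comparison. The tables come from the hippocampus of young adult male C57BL/6JOlaHsd mice after intra-amygdala kainic acid (KA), an agonist of glutamate receptors that triggers status epilepticus, or after PBS. KA mice were then given lorazepam, and tissue was taken at 24 h, the acute stage, or at 2 weeks, by when mice of this model have spontaneous seizures. An input library was made from total RNA and an m6A library from the RNA that an antibody against N6-methyladenosine bound, so an m6A level follows both the amount of a transcript and how much of it was bound. The m6A libraries came from 5 KA and 3 PBS mice at 24 h and from 6 KA and 5 PBS mice at 2 weeks. The input libraries with 100000 or more counts came from 3 KA mice and 1 PBS mouse at 24 h and from 6 KA and 3 PBS mice at 2 weeks.

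Glutamate released onto a spine opens receptors that are held in place by the membrane-associated guanylate kinases, among them PSD-95, the product of Dlg4. These bind the guanylate kinase associated proteins of the Dlgap genes, which bind Shank proteins, which in turn bind Homer and reach the actin cytoskeleton. Calcium entry activates calmodulin and with it CaMKII, built mainly from the Camk2a and Camk2b products in the forebrain, while neurogranin (Nrgn) holds calmodulin at rest. Neuroligins and Lrrtm proteins reach across the cleft to presynaptic neurexins, with neuroligin 2 (Nlgn2) and gephyrin (Gphn) at inhibitory synapses.

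Total counts ran from 3057578 to 12694434 in the 13 input libraries used and from 1652933 to 34564536 in the 19 m6A libraries. Prefixes in the column names divide the m6A libraries into sets 3, 4 and 5 and the inputs into those with no prefix and those with the prefix Input. Set 3 holds KA mice alone. Set 4 holds both treatments at 24 h and also PBS mice of 2 weeks. Set 5 holds both treatments at 2 weeks and also PBS mouse 1 of 24 h. Of the inputs used, those with the prefix Input all come from KA mice, mouse 8 at 24 h and mice 6, 7 and 9 at 2 weeks. The PBS inputs used all have no prefix. Set and treatment are therefore partly confounded in both assays. In KA mouse 8 at 24 h, mitochondrial transcripts took 17.4% of input and 16.4% of m6A counts, and in the m6A library of KA mouse 6 at 2 weeks they took 17.5%. All 16 pyramidal and granule cell markers were detected in every library, with summed levels of 962 to 2597 CPM (the count of a gene scaled to library depth by TMM, the unit of every level here). Because the tissue is bulk, fewer cells of a type and less RNA per cell cannot be told apart.

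The sequences of the members are shown because their GC content moved with several of the differences that follow. Over the 35 canonical GENCODE transcripts the median GC content was 52.6%, against 48.5% for 28351 genes of the tables, and the median length was 5472 bases, against 1854. Each of the 35 held at least 1 GGACT, a core of the consensus around methylated adenosines, as did 73.3% of the 28351. The motif was searched on the transcript strand alone, and a match is not a measured m6A site. Coding stretches around a GGACT follow for 3 GC-rich members whose 2-week input means were higher in KA mice and for 2 members of lower GC content whose means were lower, 5′ to 3′, with the motif in capitals.
Shank1: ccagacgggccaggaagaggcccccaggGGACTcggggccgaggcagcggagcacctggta
Dlgap3: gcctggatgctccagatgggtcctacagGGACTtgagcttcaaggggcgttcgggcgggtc
Nlgn2: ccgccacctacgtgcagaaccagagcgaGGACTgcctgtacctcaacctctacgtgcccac
Nlgn1: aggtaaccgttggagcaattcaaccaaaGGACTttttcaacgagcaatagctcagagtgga
Lrrtm3: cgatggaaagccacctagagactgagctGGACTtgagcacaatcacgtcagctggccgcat

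In RefSeq for GRCm38.p6, the assembly that mm10 stands for, Shank1 lies at chr7:44308916-44360094 and Dlgap3 at chr4:127168305-127237022, both on the plus strand. Nlgn2 lies at chr11:69823123-69837784, Nlgn1 at chr3:25421808-26332866 and Lrrtm3 at chr10:63928497-64090255, all on the minus strand. GC made up 63.6% of the 6501 coding bases of Shank1, which held 9 GGACT. It made up 46.0% of the 2529 coding bases of Nlgn1, which held 2.

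In input RNA of the 4 PBS mice the members spanned a wide range of levels per kilobase of transcript. Camk2a, the alpha subunit of CaMKII, stood highest at 183 ± 47.4 CPM per kb (SD, n = 4), followed by Nrgn at 124 ± 36.2. Camk2b, the beta subunit, was at 107.5 ± 37.5 CPM per kb and Ppp1r9b, which encodes the actin-binding protein spinophilin, at 90.4 ± 21.0. From Camk2a down to Dlgap2, at rank 33, each gene overlapped with the next over the 4 mice. Grip1, a scaffold of AMPA receptors, followed at 4.62 ± 0.446 CPM per kb and Homer3 came last at 2.36 ± 0.323, and neither overlapped with its neighbour.

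At 2 weeks the input means of the Shank genes, Dlgap3, Nlgn2 and Iqsec2 were higher in KA than in PBS mice, and those of Nlgn1, Camk4, Dlg1 and Dlg2 were lower. None of these differences passed correction: edgeR's quasi-likelihood test over 13752 genes called 0 of the 35 members and 0% of all genes, and the smallest adjusted p of a member was 0.251. At an unadjusted p under 0.05 there were 14 of the 35 members, or 40%, 10 with a higher and 4 with a lower mean, against 14.1% of all genes. The median log2 difference was 0.17 over the members and 0.02 over all genes. DESeq2 called Shank1 alone of the members (adjusted p = 0.0438) and 0.844% of all genes. Voom with quality weights called Shank1, Dlgap3 and Nlgn1 and 2.6% of all genes. The KA libraries lay wholly above PBS for 1 member and wholly below for 4, while 7.52% of all genes were separated in either direction.

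Among the Shank genes, Shank1 was at 328, 236 and 241 CPM in the PBS inputs and at 321 to 486 in the 6 KA inputs, with a median of 399. Only PBS mouse 2 overlapped the KA range. The log2 difference of Shank1 was 0.58 (SE 0.16, edgeR adjusted p = 0.251). Shank2 and Shank3 had log2 differences of 0.42 and 0.51 and overlapped between the groups. Homer3, a low-level binding partner of Shank, was at 6.10, 5.47 and 5.98 CPM in PBS and at 6.49 to 16.6 in KA mice, with a median of 10.1. It was the member whose KA libraries all lay above PBS, by a log2 difference of 0.78 (SE 0.28, edgeR adjusted p = 0.286), while Homer2 had one of -0.21.

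Dlgap3 was at 65.3, 54.7 and 57.7 CPM in PBS and at 63.4 to 132 in KA inputs, with a median of 88.2. PBS mouse 2 lay just above the lowest KA library. The log2 difference of Dlgap3 was 0.64 (SE 0.20, edgeR adjusted p = 0.266), that of Dlgap4 was 0.44 and that of Dlgap1 was 0.01. Of the guanylate kinases, Dlg4 had a log2 difference of 0.55 (SE 0.27, edgeR adjusted p = 0.382) with overlapping groups. Dlg1, which encodes SAP97, was at 185, 188 and 174 CPM in PBS and at 114 to 171 in KA inputs, with a median of 139. Dlg2, which encodes PSD-93, was at 413, 386 and 390 CPM in PBS and at 284 to 368 in KA inputs, with a median of 327. The groups of Dlg1 and Dlg2 did not overlap, and their log2 differences were -0.34 and -0.28.

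Of the kinases and calmodulin binders, Camk2a was at 1252, 656.5 and 901 CPM in the PBS inputs and at 692 to 2053 in KA inputs, with a median of 1420. The spread within both groups was wide, and the log2 difference of 0.51 (SE 0.33) had an edgeR adjusted p of 0.499. Camk2b and Nrgn differed by 0.53 and 0.59 on the log2 scale, also with overlapping groups. Camk4, a nuclear calmodulin-dependent kinase, was at 209, 194 and 229 CPM in PBS and at 93.5 to 188 in KA inputs, with a median of 148. All its KA libraries lay below PBS, by a log2 difference of -0.51 (SE 0.18, edgeR adjusted p = 0.281).

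Among the adhesion proteins, the neuroligin of excitatory synapses, Nlgn1, was at 161, 217 and 175.5 CPM in PBS and at 106 to 165 in KA inputs, with a median of 120. KA mouse 7 alone reached the PBS range, and the log2 difference was -0.48 (SE 0.16, edgeR adjusted p = 0.271). Nlgn2 was at 47.0, 35.2 and 44.9 CPM in PBS and at 39.8 to 106 in KA inputs, with a median of 71.7. Its groups overlapped in the KA mice 5 and 7, and the log2 difference was 0.71 (SE 0.27, edgeR adjusted p = 0.296). Gphn was at 55.3, 68.4 and 53.1 CPM in PBS and at 50.5 to 54.3 in KA inputs, a log2 difference of -0.15. Lrrtm3 lay below PBS in all KA libraries, by a log2 difference of -0.43 (SE 0.21, edgeR adjusted p = 0.368).

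**Figure D1:**
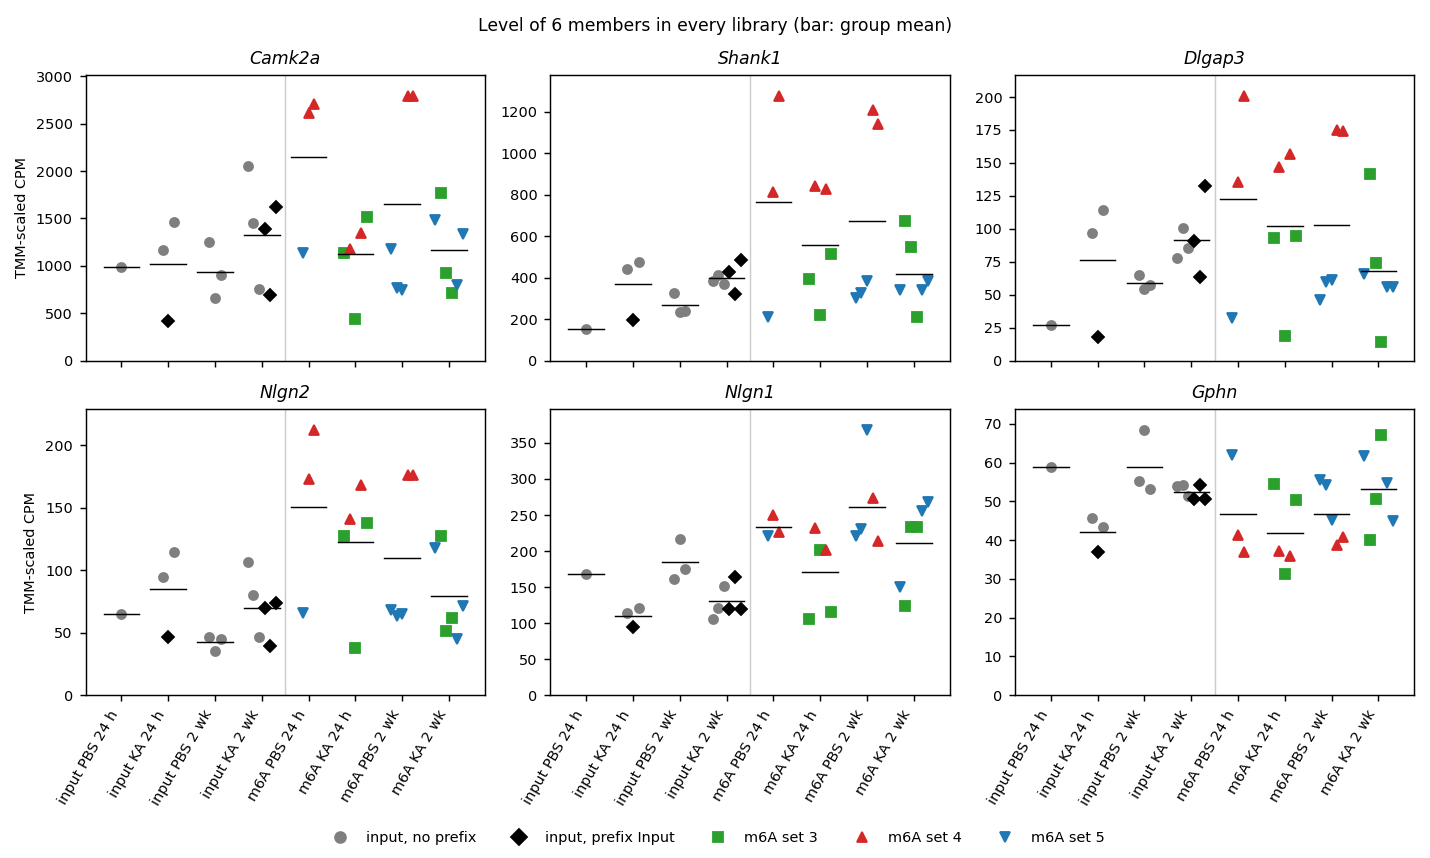
Levels of Camk2a, Shank1, Dlgap3, Nlgn2, Nlgn1 and Gphn in CPM after TMM scaling, 1 point a library, by assay, treatment and time, with the library set marked and a bar at each group mean. The 4 PBS libraries of set 4 stand above the 4 of set 5 for Camk2a, Shank1, Dlgap3 and Nlgn2, as in the 2616 to 2795 CPM of Camk2a in set 4.

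GC content moved with the 2-week input differences. Of the 13 members with at least 55% GC, 11 had a higher mean in KA mice, 9 of them at an unadjusted p under 0.05, and their median log2 difference was 0.51. Of the 22 below 55%, 1 was higher and 4 were lower at that p, and the median was 0.02. Among all genes of at least 55% GC, 20.5% were higher at that p and the median was 0.27. Among all genes below 55%, 5.23% were higher and 6.99% lower, and the median was -0.04. Within the inputs that have no prefix, 3 KA and 3 PBS mice, 11 members were higher and 3 lower at an unadjusted p under 0.05, against 16.5% of all genes in either direction. The part of GC content in these differences was not tested.

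Markers of other cell types were summed in the same inputs. The 12 microglia markers summed to 173.5 to 229 CPM in PBS and 231 to 542 in KA inputs. The 12 astrocyte markers summed to 2499 to 4259 and 3451 to 8165. EdgeR called 0 of either list, with 6 and 4 higher at an unadjusted p under 0.05. In either direction 14.1% of all genes were at that p. The 16 pyramidal and granule cell markers summed to 1241 to 1326 CPM in PBS and 1207 to 1548 in KA inputs. None of the 16 was at 0. EdgeR called 0 of these 16, with 6 higher and 1 lower at an unadjusted p under 0.05, or 43.8%, against 40% of the members. Their median log2 difference was 0.38, against 0.17 over the members. The part of cell makeup in the members' differences was not tested.

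At 24 h the input comparison rests on 1 PBS mouse, whose spread was taken from the other input groups fitted with it. Shank1 was at 152 CPM in the PBS input and at 439, 196 and 473 in KA mice 67, 8 and 98, above PBS in all 3. Its log2 difference was 1.28 (SE 0.43, edgeR adjusted p = 0.396). Dlgap3 was at 26.9 CPM in PBS and at 96.8, 17.6 and 114 in the same KA mice, so that mouse 8 alone lay below PBS, and its log2 difference was 1.49 (SE 0.73, edgeR adjusted p = 0.567). Nlgn1 was at 168 CPM in PBS and at 115, 94.7 and 121 in KA mice, and Gphn at 58.8 and at 45.8, 37.0 and 43.4. Both lay below PBS in every KA mouse, with log2 differences of -0.61 (SE 0.26) and -0.48 (SE 0.20).

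EdgeR called 0 of the 35 members and 0% of 17644 genes at 24 h in input RNA. Shank1, Gphn and Nlgn1 were the 3 members at an unadjusted p under 0.05, against 9.23% of all genes, and DESeq2 called 0 members, with 5 at that p, against 10.3% of all genes. The median log2 difference was 0.04 over the members and 0.27 over all genes. Mouse 8 weighed on these values, since its members summed to 3559 CPM against 7263 and 8472 in the other KA inputs. Voom with quality weights called Shank1, Dlgap3, Shank3 and Shank2 as higher, with 5.99% of all genes called. The inputs with no prefix set the 2 other KA mice against the PBS mouse. Dlgap3, Shank1, Shank3, Shank2, Ppp1r9b, Iqsec2 and Nlgn2 were among the members above PBS in both, with a log2 difference of 1.94 for Dlgap3. The spread of that fit comes from the 2 KA mice alone, so its calls carry no spread between controls and are not counted here. The 16 pyramidal and granule cell markers summed to 1764 CPM in the PBS input and 1042 to 1424 in the KA inputs.

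Several other members split by mouse in the 24 h inputs. Shank2 was at 72.3 CPM in PBS and at 155, 50.0 and 175.5 in KA mice 67, 8 and 98, and Shank3 at 40.1 and at 94.4, 30.1 and 105. Camk2a was at 988 CPM in PBS and at 1165, 421 and 1459 in the KA mice, and Dlg4 at 214 and at 307, 87.2 and 382. For each of these 4 genes mouse 8 lay below PBS and the other KA mice above. Nlgn2 was at 64.7 CPM in PBS and at 94.6, 46.4 and 114 in KA mice, with the same split. The log2 differences were 0.81 for Shank2, 0.92 for Shank3, 0.04 for Camk2a, 0.27 for Dlg4 and 0.39 for Nlgn2. Those of Homer2, Homer3, Camk2b and Nrgn were -0.18, 0.20, -0.50 and -0.17, and edgeR's adjusted p was 0.639 or higher for these 9 genes.

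In m6A libraries the members differed between sets also where no KA was given. Among the 8 PBS libraries, the 4 of set 4 lay wholly above the 4 of set 5 for 18 members and wholly below for 4, against 38.6% of all genes in either direction. The median log2 difference between the sets was 0.75 over the members and 0.05 over all genes. Ppp1r9b was at 2142 ± 196 CPM in set 4 and 465 ± 60.5 in set 5 (SD, n = 4 each), a ratio of 4.62. Shank1, Shank3 and Dlgap3 were 3.68, 3.65 and 3.52 times higher in set 4, and Camk2a was 2.92 times higher. Dlg1 and Dlg2 stood at 0.465 and 0.628 of their set 5 means. The members summed to 13690 to 15410 CPM in set 4 and 7517 to 8530 in set 5, and the other postsynaptic genes to 25730 to 27460 and 21290 to 22440. Presynaptic genes summed to 16740 to 19090 CPM in set 4 and 12460 to 12890 in set 5, and pan-neuronal markers to 7028 to 7404 and 4650 to 5789. Each of these lists lay higher in set 4 in all libraries, while the pyramidal and granule cell markers, at 1896 to 2350 and 1583 to 2597, overlapped.

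**Figure D2:**
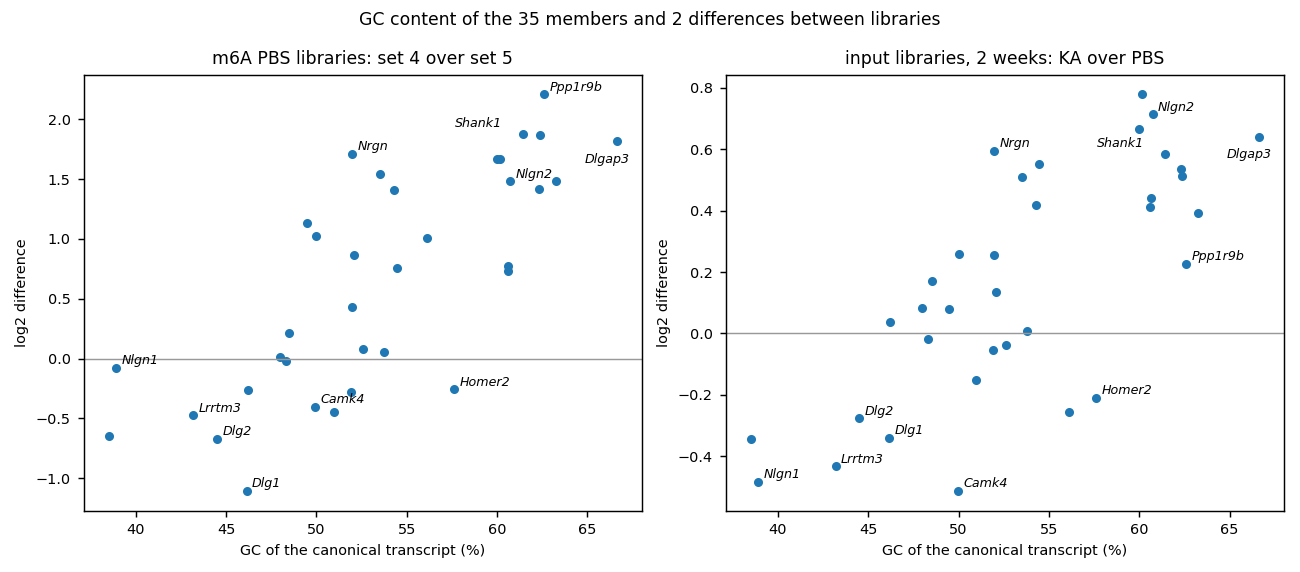
GC content of the 35 canonical transcripts in percent against the log2 difference between sets 4 and 5 in PBS m6A libraries and against the log2 difference of KA over PBS in 2-week inputs, 1 point a member. Of the 13 members with at least 55% GC, 11 lie above 0 in the inputs.

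At 24 h the m6A means of Dlgap1, Cnksr2, Camk2a and most other members were lower in KA mice. EdgeR called 0 of the 35 members and 0.00607% of 16470 genes, and 1 member, Dlgap1, had an unadjusted p under 0.05, against 5.31% of all genes. DESeq2 called 0 members, with 3 at that p, against 6.39% of all genes. The median log2 difference was -0.40 over the members, 30 of which had a lower mean, and 0.08 over all genes. The members' median minus that of all genes, -0.48, was -0.18 without KA mouse 8 and -0.71 without PBS mouse 1. Voom with quality weights called Camk2a, Dlgap1 and Cnksr2 as lower, with 6.81% of all genes called. Dlgap1 was at 509, 522 and 554 CPM in PBS and at 335, 330, 277, 349 and 411 in KA mice 67, 79, 8, 97 and 98. Every KA library of Dlgap1 lay below PBS, by a log2 difference of -0.63 (SE 0.24, edgeR adjusted p = 0.799). Cnksr2, a scaffold that links the density to Ras signalling, and Camk2g, the gamma subunit of CaMKII, were the other members separated this way, where 4.63% of all genes were separated in either direction. Cnksr2 was at 818, 803 and 706.5 CPM in PBS and at 575, 488, 343, 525 and 643 in the same KA mice, a log2 difference of -0.59 (SE 0.28, edgeR adjusted p = 0.982).

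Camk2a was at 1137 CPM in PBS mouse 1 of set 5 and at 2616 and 2705 in PBS mice 71 and 73 of set 4. In KA mice it was at 1133, 438 and 1520 in set 3 and at 1179 and 1344 in mice 79 and 97 of set 4. Over all libraries the groups overlapped through PBS mouse 1, and the log2 difference was -0.93 (SE 0.44, edgeR adjusted p = 0.982). Within set 4 they did not overlap, and the log2 difference was -1.08 (SE 0.15, edgeR adjusted p = 0.0208). Camk2a was the 1 member called within set 4, a split chosen after seeing the data, where 2.11% of all genes were called. The PBS libraries of set 4 at 2 weeks were at 2795 and 2792 CPM, above both KA libraries of the set. They belong to the other time and were not in that fit. Within set 4, with 2 mice a group, 2 members lay wholly above and 20 wholly below PBS, against 51.5% of all genes in either direction. The members' median within set 4 was -0.32. With the set as a block the log2 difference of Camk2a was also -1.08, with an SE of 0.58 and an edgeR adjusted p of 1.00. Only set 4 holds both treatments at 24 h, so that value comes from the same libraries and is no separate check. The pyramidal and granule cell markers summed to 1896 to 2115 CPM in PBS and 962 to 1722 in KA m6A libraries, and their part in the members' values was not tested.

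Among the other members of the 24 h m6A libraries, Camk2b, Homer2, Homer3 and Dlg4 had log2 differences of -0.64, -0.60, -0.66 and -0.60. Shank1, Shank2, Shank3, Nrgn, Nlgn2 and Gphn had differences of -0.45, -0.30, -0.40, -0.46, -0.29 and -0.16. All these groups overlapped, and edgeR's adjusted p was 0.982 or higher for each. Shank1 shows how the sets lie within a group. It was at 209 CPM in PBS mouse 1 of set 5 and at 811.5 and 1276 in the PBS mice of set 4, and at 392, 222 and 514 in the KA mice of set 3 and 840 and 826 in those of set 4.

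At 2 weeks the m6A means of Lrrtm1, Camk2g and Nlgn3 were lower in KA mice, and no member was separated between the groups, against 0.637% of all genes. EdgeR called 0 of the 35 members and 0% of 16157 genes, and these 3 were the members at an unadjusted p under 0.05, against 5.01% of all genes. DESeq2 and voom called 0 members as well, with 3 and 2 at that p, against 6.29% and 7.15% of all genes. Lrrtm1, an adhesion protein that binds neurexins, was at 34.5, 38.1, 45.3, 91.2 and 71.7 CPM in PBS and at 20.5 to 50.5 in KA mice, with a median of 34.5. Its highest PBS levels were the 2 of set 4, and the log2 difference was -0.73 (SE 0.28, edgeR adjusted p = 0.875). Camk2g was at 108, 116, 168.5, 132 and 115 CPM in PBS and at 71.8 to 109.5 in KA mice. Nlgn3, a neuroligin found at both kinds of synapse, was at 120, 117, 141, 303 and 253 CPM in PBS and at 91.7 to 146 in KA mice. Both overlapped between the groups, with log2 differences of -0.41 and -0.58. Within set 5, with 3 mice a group, that of Lrrtm1 was -0.38 (SE 0.26), that of Camk2g -0.45 (SE 0.25) and that of Nlgn3 -0.03 (SE 0.22).

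The members' median at 2 weeks moved from -0.31 over all libraries to 0.02 within set 5, where all genes were at 0.02. Camk2a had a log2 difference of -0.49 over all libraries and 0.43 within set 5. Camk2b moved from -0.30 to 0.51, Nrgn from -0.62 to 0.43 and Nlgn2 from -0.46 to 0.26. Shank1 moved from -0.67 to 0.09, Shank2 from -0.54 to 0.02, Shank3 from -0.59 to 0.18 and Homer3 from -0.62 to 0.26. Homer2, Dlg4 and Gphn had differences of -0.30, -0.47 and 0.18 over all libraries. Within set 5, 0 members lay wholly above PBS and 3 wholly below, against 10.1% of all genes in either direction. Homer2 was among those below, at 86.6 to 103.7 CPM in KA and 112.8 to 154.2 in PBS mice, while Dlg4 and Gphn overlapped. The 2 PBS libraries of set 4 and the 3 KA libraries of set 3, mouse 6 among them, are in the values over all libraries and not in those within set 5.

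**Figure D3:**
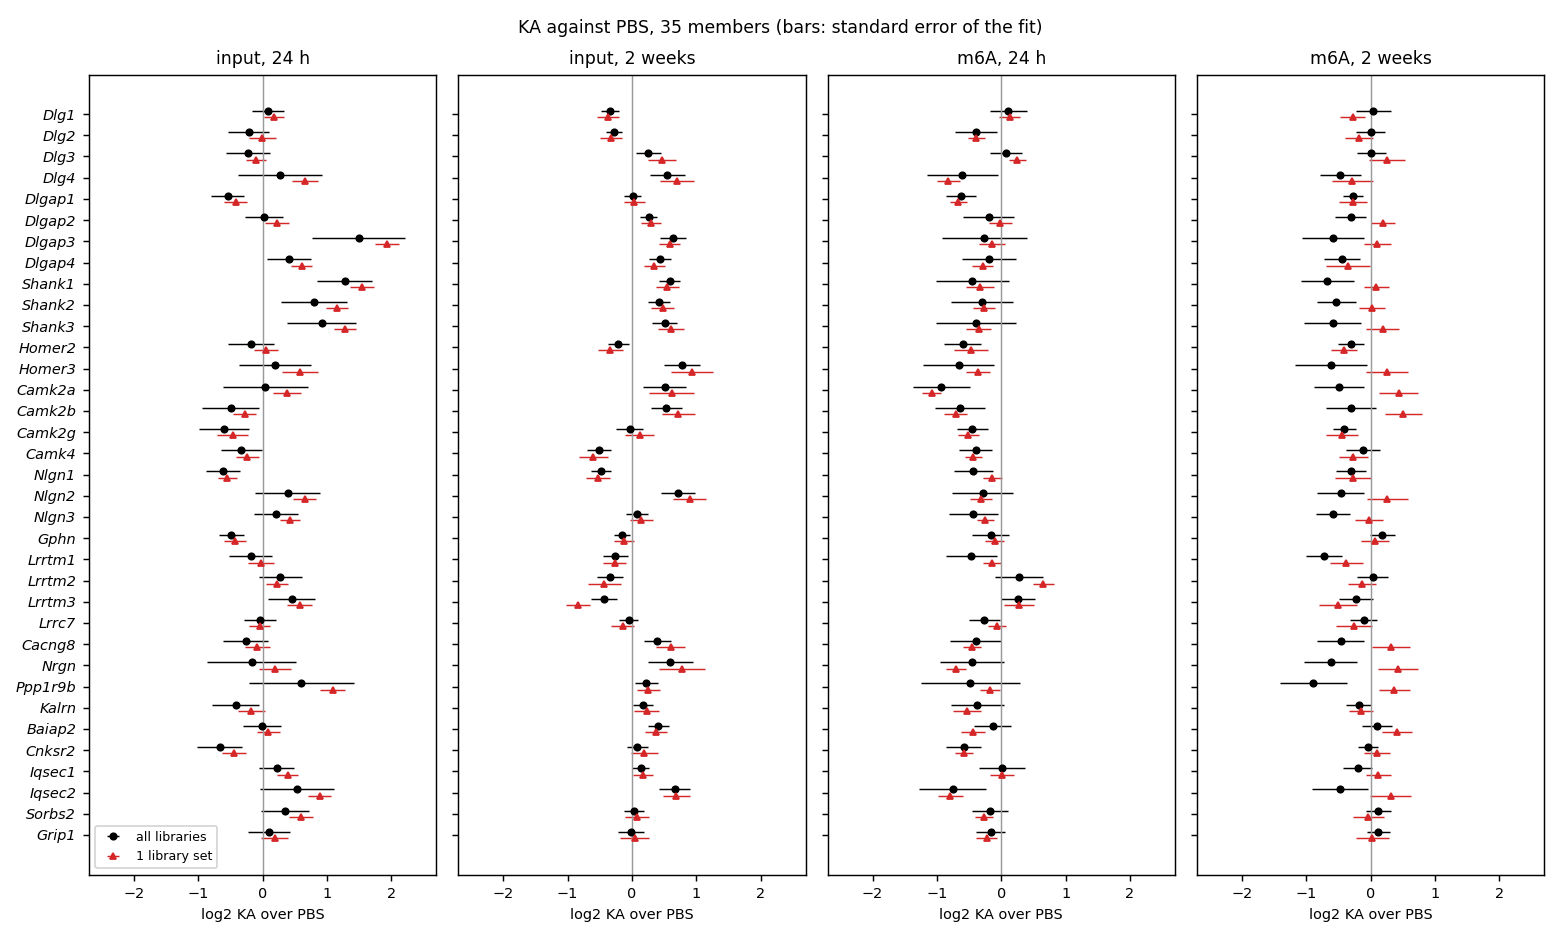
Log2 difference of KA over PBS for each of the 35 members, with SE, in m6A and input libraries at 24 h and 2 weeks, from all libraries and from the 1 library set that holds both treatments. In m6A libraries at 2 weeks the members' median is -0.31 over all libraries and 0.02 within set 5.

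The change of the KA difference between 24 h and 2 weeks in m6A libraries was tested directly. EdgeR called 0 of the 35 members and 0.00573% of 17440 genes. Cnksr2 was the 1 member at an unadjusted p under 0.05, against 2.45% of all genes, with a change of 0.54 on the log2 scale (SE 0.26, edgeR adjusted p = 1.00). Cnksr2 was at 343 to 643 CPM in the 5 KA m6A libraries at 24 h, with a median of 525, and at 633 to 858 in the 6 at 2 weeks, with a median of 760. The changes of Dlgap1 and Lrrtm3, next by p, were 0.35 (SE 0.24) and -0.48 (SE 0.38). DESeq2 and voom called 0 members, with 1 and 2 at that p, against 3.16% and 10.4% of all genes.

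The ratio of m6A to input within a mouse was measured in 13 mice. In the 4 PBS mice the m6A libraries were all of set 5 and the inputs all had no prefix. Assay and library set can therefore not be told apart in their ratios. The members' median log2 ratio in these mice was 0.04, against 0.00 over all genes. EdgeR called 0 of the 35 members and 2.74% of 16634 genes, and 4 members had an unadjusted p under 0.05, against 19.7% of all genes. Baiap2, which encodes the actin regulator IRSp53, had log2 ratios of -0.61, -0.37, -0.18 and -0.68 in PBS mice 1 to 4. All were below 0, with an estimate of -0.48 (SE 0.14, edgeR adjusted p = 0.0732). The m6A level of Baiap2 in PBS mice averaged 126 CPM in set 4 and 73.4 in set 5. Lrrc7, which encodes the scaffold densin-180, had log2 ratios of 0.39, 0.20, 0.27 and 0.62, all above 0, with an estimate of 0.36 (SE 0.13, edgeR adjusted p = 0.135). Gphn and Grip1 were below 0 in every PBS mouse, with estimates of -0.36 for each. DESeq2 called Baiap2, with 6.21% of all genes called. Voom called Baiap2, Cnksr2, Gphn and Lrrc7, with 16.2% of all genes called, and scaling by library size called Lrrc7 and Nlgn3, with 8.64%.

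No member's ratio passed the test for a change with KA. In the mice with both libraries, the KA m6A libraries of 24 h were all of set 3 and the PBS ones all of set 5. Set and treatment can therefore not be told apart in the 24 h change. At 2 weeks the KA m6A libraries came from sets 3 and 5. At 24 h edgeR called 0 of the 35 members and 0.012% of all genes, with 0 members and 3.61% of genes at an unadjusted p under 0.05. At 2 weeks it called 0 members and 0.00601% of all genes, with 0 members and 3.91% of genes at that p. DESeq2 and voom called 0 members at both times, with 1 and 4 at that p at 24 h and 0 in both at 2 weeks. The shares of all genes at that p were 3.22% and 8.25% at 24 h and 3.58% and 4.67% at 2 weeks. Dlg4 had the smallest p at 2 weeks, with a change of -0.68 (SE 0.36, edgeR adjusted p = 0.963). Its log2 ratios were -0.06, -0.04, 0.63 and 1.00 in PBS mice 1 to 4 and ran from -1.64 to 0.42 in the 6 KA mice. The lowest was mouse 6, the library with the high mitochondrial share, and the groups overlapped. Homer2 and Nlgn2 followed with changes of -0.29 (SE 0.16) and -0.34 (SE 0.21). At 24 h the smallest p belonged to Lrrc7, Nrgn and Nlgn3, with changes of -0.41 (SE 0.20), 0.46 (SE 0.25) and -0.31 (SE 0.18).

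**Figure D4:**
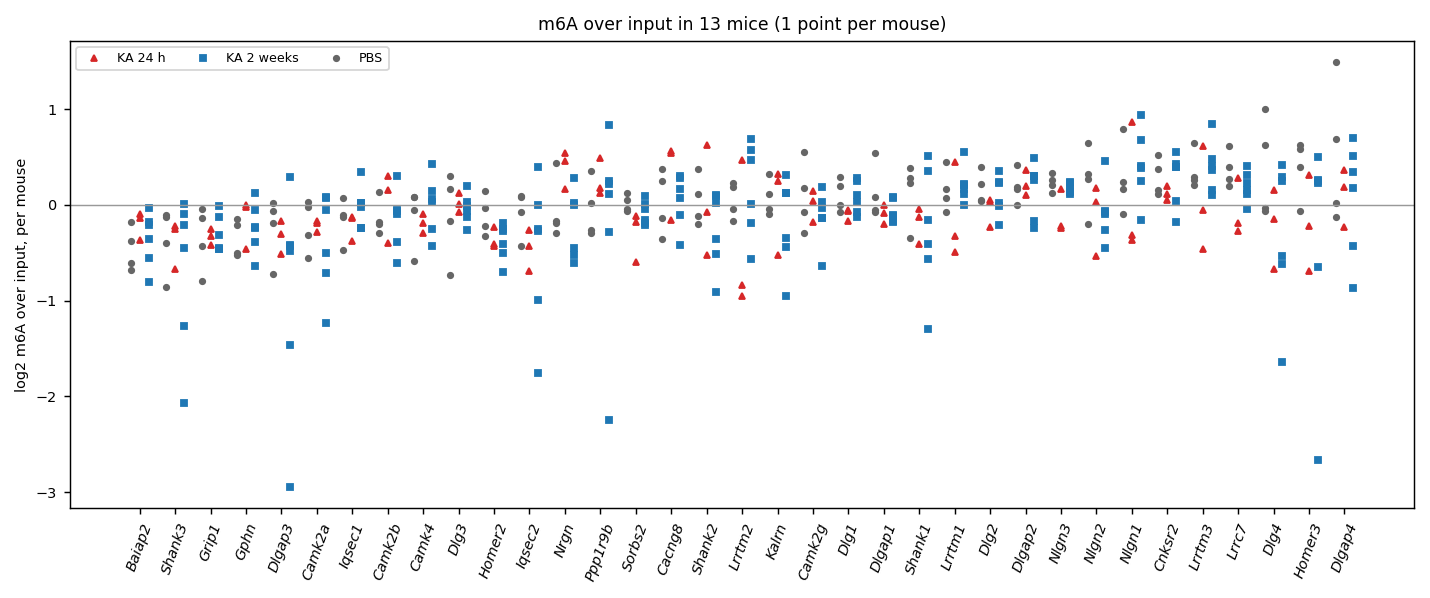
Log2 ratio of m6A over input within a mouse for members in 4 PBS mice, 3 KA mice at 24 h and 6 KA mice at 2 weeks, 1 point a mouse. Baiap2 lies below 0 and Lrrc7 above 0 in all 4 PBS mice.

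The other genes of the synapse give the setting for these values. Of 83 other postsynaptic genes tested in m6A libraries, edgeR called 0 at 24 h and 0 at 2 weeks, with medians of -0.20 and -0.21. At an unadjusted p under 0.05 there were 6 and 10, against 5.31% and 5.01% of all genes. The 34 presynaptic genes had medians of -0.26 and -0.16 in m6A libraries, with 0 and 1 at that p. The 16 pyramidal and granule cell markers had medians of -0.53 and -0.25, with 3 and 0 at that p. EdgeR called 0 of either list at either time. In 2-week inputs, where 14.1% of all genes were at that p, edgeR called 0 of 82. Of these, 13 were higher and 9 lower at that p, with a median of 0.06. Of 34 presynaptic genes edgeR called 0 in the same inputs, with 5 higher and 2 lower at that p and a median of 0.16. In the 4 PBS mice with both libraries, whose m6A libraries were all of set 5, the ratio was called for 6 of the 83 other postsynaptic genes. The share over all genes was 2.74%. Of the 6, 5 were above and 1 below 0. The 1 below was Grip2, a relative of Grip1, at -1.25 (SE 0.27, edgeR adjusted p = 0.0224), and Akap5, an anchor of kinases at the density, was above at 0.82 (SE 0.19, edgeR adjusted p = 0.0308).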

How the data were processed

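Counts per gene were deposited by the authors as raw whole numbers, 4 lanes a library, and the lanes were summed. The genome build is mm10 per the submitters' processing notes. For the aligner, the counter and strand, nothing is given in the sources used here. The assay of 27 of 35 libraries was read from the prefix of the column name. Input libraries under 100000 counts (4621, 34486 and 3171) were left out, and 8 columns that no sample matched were not used. The 35 members and all other lists were chosen with earlier results of these data known.

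Genes were kept by filterByExpr, scaled by TMM and tested with edgeR 4.0.16 (quasi-likelihood, robust) in R 4.3.3, each comparison over its own groups, except 24 h inputs, fitted with the 2-week inputs. P-values were adjusted by Benjamini-Hochberg over all genes tested, with a threshold of 0.05. The ratio of m6A to input had the mouse as a block, since both libraries came from the same animal. PBS mice of both times were joined there. Log2 CPM used a prior count of 2. SE is the log2 difference over the root of F. Transcripts were those of GENCODE M39. Alternatives were DESeq2 1.42.0, voom with quality weights (limma 3.58.1), library size scaling, no filter, a mean of 10 counts, library totals free of mitochondrial genes, the set as a block or alone, and each library left out. Whether PBS mice received lorazepam is not stated. The fits were tested on simulated data. Values in every library are given for the 3 members with the smallest p where under 3 passed, beside fixed scaffolds and kinases. Depth limits the precision of low genes.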

Additional observations from a re-analysis of the deposited data

Results flagged for a closer look

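For 4 of 140 members' groups of 5 or 6 libraries, or 2.9%, 1 library stood far from the others, where chance gives about 1 in 20. The members share the same libraries, so these groups are not independent. In m6A libraries of KA mice at 24 h, mouse 8 was lowest for Dlgap4, a guanylate kinase associated protein, at 57.2 CPM with the nearest other library at 145. The same library was lowest for Cacng8, an auxiliary subunit of AMPA receptors, at 17.2 CPM with the nearest other at 47.4. Lrrc7 was highest in PBS mouse 4 among m6A libraries at 2 weeks, at 472 CPM with the nearest other at 330. Cnksr2 was highest in KA mouse 21 among 2-week inputs, at 735 CPM with the nearest other at 535. Mouse 8 is the library with 16.4% mitochondrial counts, and the part of that share in these values was not tested.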

How the results depend on the processing

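No member passed an adjusted p of 0.05 under the main settings, and most alternatives kept that. Among the exceptions, for m6A at 24 h voom called 3 members and 6.81% of all genes, and set 4 alone called 1 and 2.11%. For 2-week inputs DESeq2 called 1 member and 0.844% of all genes, and voom 3 and 2.6%. For m6A over input in PBS mice DESeq2 called 1 member, voom 4 and library size scaling 2. The shares of all genes there were 6.21%, 16.2% and 8.64%. Members were also called in 24 h inputs under voom, with no prefix and with a KA library left out, where 1 PBS mouse was the only control. The cause of these exceptions was not tested. Sets 4 and 5 alone and the inputs with no prefix were chosen after seeing the data. For 2-week inputs, members at an unadjusted p under 0.05 numbered 6 with all input groups in 1 fit, against 8.16% of all genes, and 4 to 19 with a library left out. There were 4 without PBS mouse 3, 8 without PBS mouse 4 and 19 without KA mouse 7, against 6.28%, 8.34% and 19.0% of all genes. For m6A at 2 weeks the members' median minus that of all genes was -0.0016 with the set as a block and -0.00013 within set 5. Only set 5 holds both treatments at 2 weeks, so both settings rest on the same comparison. For inputs at 24 h that difference of medians was 0.22 under voom and 0.18 without a prefix. Leaving out a library gave -0.40 to 0.18 there, the highest without KA mouse 8. Leaving out PBS mouse 1, the only control, could not be fitted.

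Several single genes changed sign, each without passing the test. For m6A at 2 weeks the set as a block and set 5 alone rest on the same comparison and are not separate checks. For m6A at 2 weeks with the set as a block, Shank1 was at 0.072, Shank3 at 0.16, Homer3 at 0.24, Camk2a at 0.42, Camk2b at 0.49, Nrgn at 0.41 and Nlgn2 at 0.24, and within set 5 Shank1 was at 0.090, Shank2 at 0.018, Shank3 at 0.18, Homer3 at 0.26, Camk2a at 0.43, Camk2b at 0.51, Nrgn at 0.43 and Nlgn2 at 0.26. For 24 h inputs, Homer2 and Nrgn were at 0.027 and 0.18 under voom and 0.056 and 0.19 without a prefix, Homer3 and Camk2a at -0.070 and -0.22 under library size scaling, Camk2a at -0.017 without a filter, and Camk2a and Nrgn at -0.025 and 0.43 with all labelled libraries. With a KA library left out there, Dlg4 ran from -0.12 to 0.68 and Camk2a from -0.32 to 0.40, both lowest without mouse 98, Homer2 from -0.45 to 0.076 and Homer3 from -0.15 to 0.60, both lowest without mouse 67, and Nrgn from -0.64 to 0.21, with each highest value without mouse 8. For m6A at 24 h, Shank1 ran from -0.90 to 0.13, Shank2 from -0.71 to 0.13, Shank3 from -0.85 to 0.12 and Nlgn2 from -0.65 to 0.035, from without PBS mouse 1 to without PBS mouse 73, and Gphn from -0.31 to 0.092 in the opposite order.

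Without the replicate block, the mouse, m6A over input called 0 members in PBS mice and 0 for either change with KA, and the members' median minus that of all genes was 0.03, -0.13 and -0.06. Of the values of the genes that the rule on names picked in each comparison, 20 passed the threshold, 24 changed sign and 529 kept direction and call under an alternative setting, and 1, 11 and 519 did so with a library left out.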
